A study of Mus musculus with 26 samples.

Results

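Among 361941 merged regions of open chromatin in sorted mouse cochlear supporting cells, 2676 (0.739%) held an ATAC peak in both libraries of control cells and in none of the 4 libraries of cells from DAPT-treated organs. They are called control-only regions here. Peaks of the 6 ATAC lists were merged where they overlapped by at least 1 base on the 19 autosomes and the X chromosome, and the presence of a peak was the only value that chose the regions. Supporting cells are epithelial cells of the cochlea that enclose its sensory hair cells. Organs from mice at postnatal day 1 were kept in culture with the gamma-secretase inhibitor DAPT or with its solvent DMSO, and were dissociated with trypsin before sorting. At 48 h, permissive cells came from DAPT cultures and carried both the TdT reporter of Lfng-CreER and Atoh1-GFP. Nonpermissive cells came from DAPT cultures and carried TdT only, and control cells came from DMSO cultures and carried TdT only. All 48 h groups therefore share the Lfng-CreER driver and the TdT reporter, and the cells followed are those in which Lfng-CreER had acted. At 48 h each group had 2 libraries of open chromatin, made by ATAC with Tn5 transposase on nuclei, and 2 of acetylated histone H3 (H3K27ac, by CUT&RUN). RNA at 48 h was sequenced in 3 permissive, 3 nonpermissive and 2 control libraries. RNA was also measured at 24 h in 3 DAPT and 3 DMSO libraries of cells sorted for Lfng-GFP, with a poly(A) kit in place of the single-cell kit used at 48 h, so time, sort and kit cannot be told apart. Nothing in the labels ties replicates to separate animals, so p-values reflect the spread between these samples alone, and that spread may be technical.

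In the organ of Corti, Notch ligands on hair cells hold their neighbours in the supporting cell fate. Gamma-secretase releases the intracellular domain of Notch, which binds the DNA-binding protein RBPJ and activates repressors of the Hes and Hey families, and these keep the hair cell gene Atoh1 silent. When gamma-secretase is blocked in the newborn cochlea, some supporting cells switch on Atoh1 and take on hair cell features. Regulatory DNA that is bound by transcription factors is open to Tn5, and H3K27ac marks active promoters and enhancers.

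Few control-only regions lay at promoters, and the stretches upstream of 3 gene starts are printed because RNA of these genes was lower after DAPT. The sequences come from RefSeq on GRCm38.p6, whose primary assembly is that of mm10. Each is the part of a control-only region that lies upstream of an annotated start, read 5′ to 3′ on the gene's strand. Capitals mark matches to the motifs searched for. The general E-box CANNTG and the base pair step CG were also searched for and are not marked on their own. The stretch at Arhgef6 is chrX:57338844-57338979 on the minus strand, bases -250 to -115 from the start, and holds the RBPJ letters TTCCCA. The stretch at Flrt2 is chr12:95692043-95692225 on the plus strand, with the SOX letters ACAAAG and the RUNX letters TGTGGTT. The stretch at Depp1 is chr6:116650514-116650683 on the plus strand, with the E-box CAGCTG and the SOX letters ACAATG.
Arhgef6 promoter: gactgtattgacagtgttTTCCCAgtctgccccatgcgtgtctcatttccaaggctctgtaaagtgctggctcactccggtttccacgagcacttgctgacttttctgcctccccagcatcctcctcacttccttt
Flrt2 promoter: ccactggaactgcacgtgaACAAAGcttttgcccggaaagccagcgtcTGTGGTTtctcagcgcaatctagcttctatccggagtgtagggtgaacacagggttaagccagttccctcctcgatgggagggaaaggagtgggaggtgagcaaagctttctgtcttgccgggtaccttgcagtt
Depp1 promoter: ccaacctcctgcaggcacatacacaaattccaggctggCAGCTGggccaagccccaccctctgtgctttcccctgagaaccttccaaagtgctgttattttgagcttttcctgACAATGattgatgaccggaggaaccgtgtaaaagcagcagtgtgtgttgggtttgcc

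Promoter windows here run from 250 bases before to 50 bases after a start, and 27 of them were covered by a control-only region over at least 100 bases. Letters and GC content were read over the whole window of 300 bases. A match counted here can therefore lie outside the control-only region. The 27 are not all separate DNA, since a single region can cover several starts. Windows overlap at the starts of Gm33041, at Abcg8 and Abcg5, at Esrrb and Gm40483, and at Gm35337 and Serpinf1. A match in shared bases counts in each window. The RBPJ letters TGGGAA, on either strand, occurred in 29.6% of these 27 windows, in 21.7% of 12323 windows covered by a region open in all 6 libraries and in 25.4% of all 32619 windows. The SOX letters ACAAAG occurred in 40.7% of the 27 windows, against 11.9% of the always open windows and 18.7% of all windows. The GATA letters AGATAA occurred in 33.3% of them, against 4.68% and 11.2%, and the TEAD letters GGAATG in 33.3%, against 10.8% and 14.6%. The GC box GGGCGG, read by KLF and SP factors, occurred in 3.7% of them, against 69.5% of the always open windows and 35.9% of all windows. The windows thus lacked the GC box that most always open promoters carry, and their median GC content of 52.3% stood beside 62.7% in always open windows and 53.0% in all windows. Of the 27 windows 12 belong to long noncoding RNAs. All motifs were searched on both strands, and CAGCTG also counts as any E-box, CANNTG. The counts describe letters and no binding site.

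The labels of the RNA libraries were checked on genes that define the cell types. The hair cell genes Atoh1 and Pou4f3 were at 635 to 1010 and 2170 to 2850 CPM (counts scaled to library size) in permissive libraries. In nonpermissive libraries, sorted without Atoh1-GFP, Atoh1 was at 30.2 to 67.2 and Pou4f3 at 24.6 to 44.2 CPM, and in control libraries they were at 2.28 to 3.55 and 7.29 to 11.4 CPM. Nonpermissive libraries thus lay above control libraries for both genes and far below permissive libraries. The supporting cell genes Sox2, Sox9 and Lfng were detected in every 48 h library, with Lfng at 30.3 to 61.5 CPM in permissive, 79.9 to 154 CPM in nonpermissive and 237 to 486 CPM in control libraries. RNA libraries held 2165338 to 4896374 expected counts at 48 h and 10666050 to 13158897 at 24 h. ATAC lists held 86988 and 170910 intervals in permissive, 110121 and 126982 in nonpermissive, and 129676 and 105346 in control libraries, and the lists do not give read depth, which is unknown.

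Control-only regions were narrower and weaker peaks than always open regions, and stood nearer to the catalogue as a whole. Their median width was 294 bp (quartiles 236 and 375 bp, widest 928 bp), against 794 bp for the 24804 regions open in all 6 libraries and 214 bp for all merged regions. Fold enrichment over background, as the authors' peak caller gave it, had a median of 3.25 in control 1 (range 1.78 to 13.3) and 3.02 in control 2 (range 1.81 to 7.53). The deposited q was at most 0.05 in both control libraries for 1720 regions (64.3%) and at most 0.01 for 818 (30.6%). Median −log10 q was 2.81 in control 1 and 1.91 in control 2, against 21.3 and 9.92 in always open regions. All merged regions with a peak in the library had 3.61 and 2.48, with median fold enrichment of 3.64 and 3.18. Regions open in both nonpermissive libraries and no other had a median width of 277 bp. Their median −log10 q was 1.48 and 2.26 in nonpermissive 1 and 2. Only 94 (3.51%) had −log10 q of at least 5 in both. These values chose the regions and are given as a description.

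**Figure D1:**
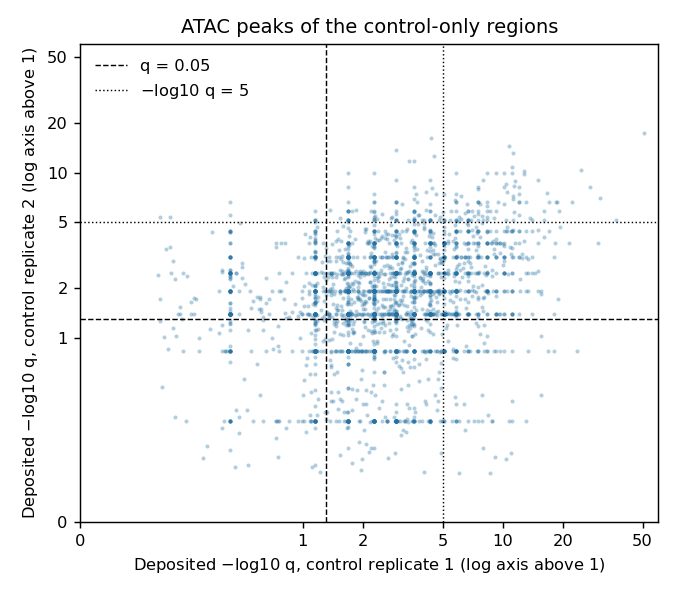
Deposited −log10 q of each control-only region in control 1 (horizontal axis) against control 2 (vertical axis), 1 point per region on axes that are linear up to 1 and logarithmic above; dashed lines mark q = 0.05 and dotted lines −log10 q of 5. Most points lie low, and 94 of the 2676 reach the dotted lines in both libraries.

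The regions just outside the rule differed from the members by 1 list entry. A further 4774 regions held a peak in both control libraries and in 1 DAPT library, of which 2502 were in nonpermissive 2 and 1623 in permissive 2, against 535 in nonpermissive 1 and 114 in permissive 1. Their median −log10 q in that DAPT library was 3.14 in nonpermissive 2 and 3.65 in permissive 2. Without 1 library the set changed in size, to 4371 regions without permissive 2 and 5261 without nonpermissive 2. It held 37452 regions without control 1 and 37217 without control 2, so agreement of both control lists removed more regions than any DAPT list. By the same kind of rule, 8704 regions were open in both permissive libraries and no other, and 2084 in both nonpermissive libraries and no other. A DAPT-library peak lay within 1 kb of 1070 control-only regions (40%) and within 5 kb of 2169 (81.1%), without touching them. With DAPT and control peaks taken only at −log10 q of at least 5, 822 regions met the rule.

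Most control-only regions lay away from promoters. Of the 2676, 64 (2.39%) lay within 1 kb of an annotated start, 1424 (53.2%) inside a gene and 1188 (44.4%) between genes. The same shares were 37.7%, 36.2% and 26.1% in always open regions, and 4.99%, 51.8% and 43.2% in all merged regions. The control-only set thus resembled the catalogue as a whole more than the always open part of it. The median distance to the nearest start was 39.7 kb, against 1.54 kb for always open regions. Their share of regions per chromosome, relative to the share of all merged regions, ran from 0.849 on chromosome 17 to 1.28 on chromosome 3. They were scattered, since 13 neighbouring pairs lay closer than 1 kb and 64 closer than 10 kb.

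**Figure D2:**
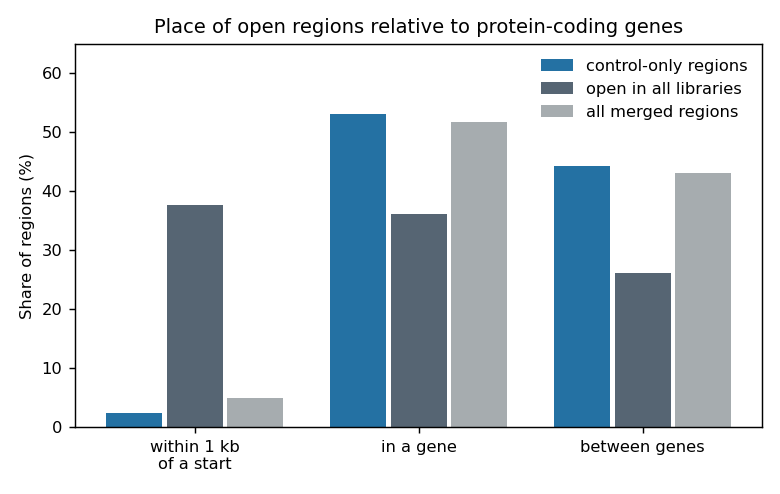
Position of control-only regions and of the other region sets relative to annotated genes, in percent of regions. Of the control-only regions 2.39% lay within 1 kb of a start, against 37.7% of always open regions.

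H3K27ac was measured in separate libraries and was not used by the rule. Of the control-only regions, an H3K27ac peak overlapped 13.7% and 5.16% in permissive libraries 1 and 2, 29.3% and 9.79% in nonpermissive libraries 1 and 2, and 16.9% and 12.1% in control libraries 1 and 2. The H3K27ac lists differ in length, covering from 22.5 to 87.6 Mb, with the broadest coverage in permissive 1 and nonpermissive 1. Each share was therefore divided by the share over all merged regions in the same library. That ratio was 0.688 and 0.56 in permissive, 1.57 and 1.2 in nonpermissive and 1.76 and 1.31 in control libraries. Both permissive values were below 1 and below every nonpermissive and control value, and the nonpermissive and control values overlapped. Means were 0.624 ± 0.0905 in permissive, 1.39 ± 0.262 in nonpermissive and 1.54 ± 0.318 in control cells (SD, n = 2 each). With 2 libraries per group no test is given, since the smallest exact permutation p for the absolute difference between 4 DAPT and 2 control libraries is 0.0667.

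The regions open in both nonpermissive libraries and no other showed a like pattern, with mean ratios of 0.693 in permissive, 1.45 in nonpermissive and 1.11 in control cells. Regions open in both permissive libraries alone had 2.66, 0.536 and 0.438. Low acetylation in permissive libraries was thus not particular to control-only regions. Where H3K27ac peaks were kept only at −log10 q of at least 5, the ratios at control-only regions were 0.241 in permissive, 0.888 in nonpermissive and 0.789 in control cells. The permissive value then still lay below the others, but control cells no longer stood above the catalogue as a whole.

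**Figure D3:**
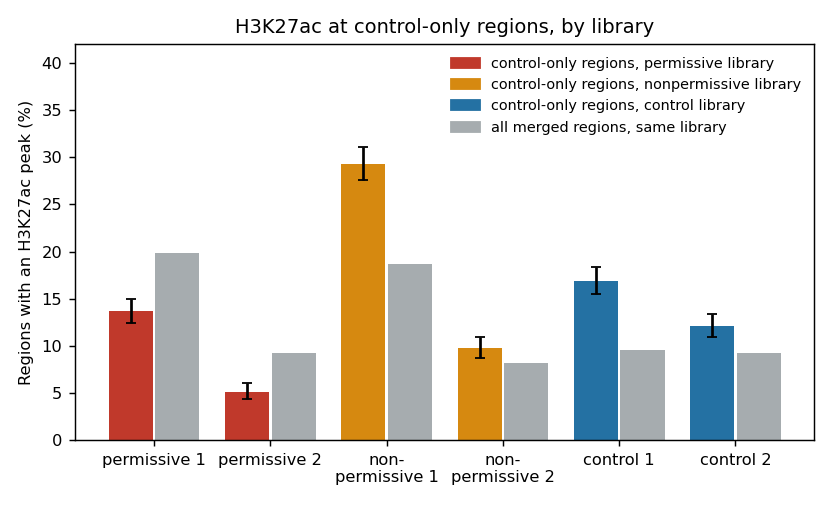
Percent of control-only regions (coloured bars, with 95% Wilson intervals for counting error) and of all merged regions (grey bars) that an H3K27ac peak overlapped, in each library. The coloured bar is below the grey one in both permissive libraries (13.7% and 5.16%) and above it in the nonpermissive (29.3% and 9.79%) and control libraries (16.9% and 12.1%).

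Most single control-only regions had no acetylation, as did most merged regions. No library had a peak at 1510 of them (56.4%), against 66.9% of all merged regions. At least 1 control library had one at 609 (22.8%, against 13.6%) and both had one at 168 (6.28%, against 5.29%). Of these 168, 75 were acetylated in at least 1 nonpermissive and no permissive library, 3 in at least 1 permissive and no nonpermissive library, 74 in libraries of both kinds and 16 in no DAPT library. In shares of the regions acetylated in both control libraries, these were 44.6%, 1.79%, 44.0% and 9.52%, against 19.2%, 1.58%, 77.1% and 2.09% over all merged regions. A nonpermissive library thus held a peak at most of these regions, as it did over all merged regions, and a permissive library did so at 45.8% of them, against 78.7%. All 6 libraries had a peak at 10 control-only regions (0.374%, against 2.16%). These differences were not tested.

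The strongest control-only region, ranked by the lower of its 2 control fold enrichments, was chr12:112378417-112379209 (mm10), between genes, with fold enrichment 11.4 and 7.20 in control 1 and 2. It was also acetylated in both control libraries (H3K27ac fold 6.09 and 5.66) and in no DAPT library. Its nearest gene could not be assigned. The next, at chrX:57277538-57278361 inside Arhgef6, had ATAC fold enrichment of 6.37 and 6.67. Its H3K27ac fold was 4.73 and 3.26 in nonpermissive and 4.56 and 4.63 in control libraries, with no peak in either permissive library. A region inside Pdgfc, a platelet-derived growth factor ligand, at chr3:81102208-81102542, had ATAC fold 6.29 and 5.85 and the same pattern, with H3K27ac fold 3.55 and 3.26 in nonpermissive and 4.56 and 4.11 in control libraries. Others of the 10 strongest lay inside Lingo2, at chr4:35885633-35886093 with fold 5.61 and 5.85 and no acetylation, and inside Syt1, at chr10:108743177-108743942 with fold 7.68 and 5.59. The Syt1 region, nearest to the start of Gm5136, was acetylated in nonpermissive 1 and in both control libraries. A region of fold 5.91 and 5.85 inside Ckap5 lay nearest to F2, and Gm52606 lay 14.3 kb from a region between genes. The other 3 lay between genes and over 100 kb from the nearest start.

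Among the 16 regions acetylated in both control libraries and in no DAPT library, those with the highest ATAC fold lay, after the chromosome 12 region, inside Vps41 (nearest start Amph; fold 8.31 and 4.83), over 100 kb from any start on chromosome 1 (5.9 and 3.78), inside Sec24d (3.25 and 4.65) and inside Mphosph8 (4.14 and 3.24). Regions near Grhl3 (3.12 and 3.3) and Nup205 (5.61 and 3.05) followed, and 3 more could not be assigned to a gene. RNA of 2 of these genes was lower after DAPT. Sec24d, a subunit of the COPII coat of vesicles that leave the endoplasmic reticulum, had 10.7, 7.36 and 6.47 CPM in permissive, 58.6, 50.2 and 32 CPM in nonpermissive and 41.7 and 110 CPM in control libraries. It fell by 3.19 on the log2 scale in permissive cells (SE 0.56, edgeR adjusted p = 0.00208), with all permissive libraries below the others. Grhl3, a transcription factor of epithelial differentiation, did not pass the filter on low counts at 48 h. At 24 h it had 0.272, 0.151 and 0.468 CPM with DAPT and 5.37, 1.57 and 3.30 CPM with DMSO, lower by 3.51 on the log2 scale (SE 0.60, edgeR adjusted p = 0.00308). Amph, Nup205 and Mphosph8 did not pass in any comparison. At the bottom of the ranking, the weakest region lay 1.2 kb from a start of Dlgap4 with fold 1.78 and 3.01. Dlgap4 RNA rose in permissive cells (log2 fold change 1.87, edgeR adjusted p = 0.038). That adjusted p was 0.058 to 0.191 without either control library or permissive 1 or 2. At 24 h Dlgap4 rose by 0.89 (edgeR adjusted p = 0.000128). The median region, near Pim1, had 2.95 and 2.80. Pim1 fell at 24 h (log2 fold change -1.16, edgeR adjusted p = 0.0222, and 0.0541 to 0.0897 in 6 alternatives).

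The RNA question was whether genes nearest to control-only regions changed with DAPT. A nearest gene was the protein-coding gene with the closest start within 100 kb, where an assignment could be made. In bulk libraries fewer cells of a type and less RNA per cell cannot be told apart. The nearest start gave 1465 regions and 1308 genes, of which 1004 passed the filter on low counts at 48 h and 1025 at 24 h. In permissive against control cells, 135 of the 1004 (13.4%) were lower and 59 (5.88%) higher by edgeR's quasi-likelihood test, against 7.28% lower and 5.72% higher of all 13411 genes tested. The share lower was thus above that of all genes, and the share higher was near it. Median log2 fold change was -0.27 over the nearest genes and 0.061 over all genes. In nonpermissive against control cells 4 (0.398%) were lower and 1 (0.0996%) higher, against 0.127% and 0.0671% of all genes. In the mean of both DAPT groups against control 61 (6.08%) were lower and 15 (1.49%) higher, against 3.04% and 1.62%. These 3 comparisons share the 2 control libraries. At 24 h, 290 of 1025 (28.3%) were lower with DAPT and 124 (12.1%) higher, against 14.2% and 11.5% of the 15174 genes tested.

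A gene's rank by counts alone gave the same direction. All 6 DAPT libraries lay below both control libraries for 104 of the 1004 genes (10.4%), against 5.41% of all genes, and above both for 38 (3.78%), against 4.79%. Control libraries weighed on these counts. Without control 1 the share lower in permissive cells was 8.49% and the share higher 2.60%, and without control 2 they were 9.67% and 2.90%. In the mean of both DAPT groups the share lower was 3.38% without control 1 and 3.48% without control 2, and the share higher 0.386% and 0.484%. The share of all genes lower fell alongside, to 4.58% and 4.64% in permissive cells and to 1.90% and 1.44% in the mean of both DAPT groups. In nonpermissive cells the 4 lower calls numbered 2 without nonpermissive 2, 0 without nonpermissive 3 and 1 without control 2, and 6 without control 1. The call higher was lost without either control library, without nonpermissive 2 or 3 and without permissive 2.

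**Figure D4:**
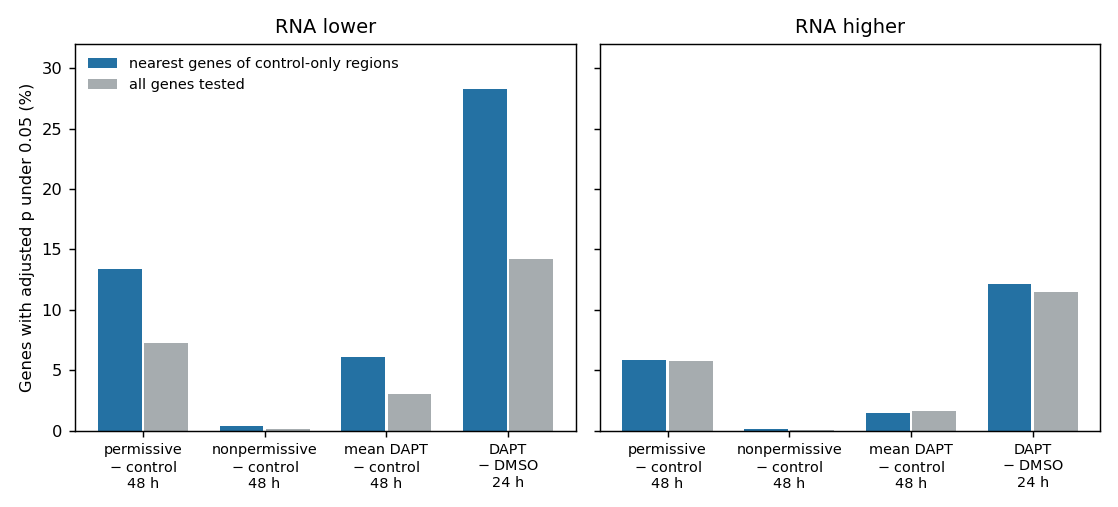
Share of genes that passed edgeR's test (adjusted p under 0.05) among nearest genes of control-only regions and among all genes tested, lower at left and higher at right. In permissive against control cells 13.4% of nearest genes were lower, against 7.28% of all genes, and at 24 h 28.3% against 14.2%.

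The share of lower genes varied with the kind of region. Of 88 genes with a control-only region acetylated in both control libraries, 23 (26.1%) were lower in permissive cells and 1 was higher. Over all genes tested 7.28% were lower and 5.72% higher in permissive cells. At 24 h 39 of 93 genes with such a region (41.9%) were lower and 8 higher, against 14.2% and 11.5% of all genes. Where no library acetylated the region, 12.9% of 556 genes were lower in permissive cells. Among 116 genes with at least 2 control-only regions 27 (23.3%) were lower, against 12.2% of 888 genes with 1. Within 5 kb of the start, 20 of 146 genes (13.7%) were lower in permissive cells, beside 7.01% of genes within 5 kb of an always open region. At 24 h 60 of 141 (42.6%) within 5 kb were lower with DAPT, beside 15.4% for always open regions. Differences between these subsets were not tested. Shares for genes nearest to all merged regions with the same acetylation were not computed. The values by acetylation are thus not shown to be particular to control-only regions.

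The shares were not particular to control-only regions. Of genes nearest to regions open in nonpermissive cells alone, 14.1% were lower in permissive cells and 24.3% at 24 h. Of genes nearest to regions open in permissive cells alone, 8.53% were lower and 11.2% higher in permissive cells. Genes nearest to any merged region were lower in 7.26% and higher in 5.62%. The nearest genes of control-only regions also lay in stretches with many regions, with a median of 24 merged regions assigned per gene against 10 for all nearest genes. The part of that difference in the RNA counts was not tested.

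The 8 genes with the largest falls in the mean of both DAPT groups were chosen among genes without overlap between DAPT and control libraries. That separation is therefore no finding about them. They were led by Daam2, a formin of Wnt signalling, with a region 51.5 kb inside the gene. It had 0 counts in all 3 permissive libraries, 7.26, 1.14 and 3.20 CPM in nonpermissive libraries, and 103 and 91.9 CPM in control libraries. Against the floor of 3 counts per library it was at least 103-fold lower in permissive cells. It fell in nonpermissive cells too (log2 fold change -4.57, edgeR adjusted p = 0.0267, and 0.0982 to 0.142 without either control library or without nonpermissive 2 or 3). Daam2 RNA at 24 h was at 1.63, 1.28 and 2.15 CPM with DAPT, against 76.7, 102 and 101 CPM with DMSO (log2 fold change -5.79, SE 0.20, edgeR adjusted p = 8.05e-07).

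Arhgef6, a guanine nucleotide exchange factor for Rac and Cdc42, carried 2 control-only regions, the promoter stretch printed above (fold 4.43 and 3.05) and the strong intragenic region. Its RNA stood at 0.206, 0.335 and 2.02 CPM in permissive, 36, 22.3 and 29.1 CPM in nonpermissive and 103 and 146 CPM in control libraries. The 3 groups did not overlap. It fell by 7.32 on the log2 scale in permissive cells (SE 0.76, edgeR adjusted p = 9.28e-05). Its levels at 24 h were 8.26, 5.59 and 7.40 CPM with DAPT and 46.1, 54.8 and 49.6 CPM with DMSO (log2 fold change -2.83, SE 0.16, edgeR adjusted p = 6.7e-06).

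Fabp7, which binds fatty acids and marks inner phalangeal and border cells, had a region 8.9 kb upstream of its start. It had 0, 0.669 and 0.404 CPM in permissive, 1.95, 6.28 and 9.92 CPM in nonpermissive and 109 and 58.5 CPM in control libraries. Only 3 counts were seen in permissive libraries, and the ratio of control to permissive cells was 307 (95% counting interval 105 to 1490). At 24 h Fabp7 fell to 7.36, 3.85 and 10.0 CPM with DAPT, against 195, 153 and 116 CPM with DMSO (edgeR adjusted p = 2.35e-05).

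Syt6 and Asic2, a synaptotagmin and a proton-gated channel subunit, were lowest in nonpermissive cells. Syt6 had 43.1, 5.36 and 14.2 CPM in permissive, 0.558, 1.14 and 0.960 CPM in nonpermissive and 140 and 128 CPM in control libraries. It fell by 7.25 on the log2 scale in nonpermissive cells (SE 0.87, edgeR adjusted p = 0.00569, and 0.0551 without nonpermissive 3). Asic2 had 23.7, 4.69 and 12.1 CPM in permissive, 1.68, 0.571 and 0.320 CPM in nonpermissive and 50.3 and 47.6 CPM in control libraries. It fell by 5.70 in nonpermissive cells (edgeR adjusted p = 0.0174, and 0.077 to 0.0992 without control 2 or nonpermissive 2 or 3), and in permissive cells its change was -1.84 (edgeR adjusted p = 0.11). The permissive group lay between the other 2 for both genes. Sez6l was the last of the 4 genes called lower in nonpermissive cells and is named because it completes that count. It had 12.8, 12.4 and 7.28 CPM in permissive, 0.279, 0 and 0 CPM in nonpermissive and 18.5 and 27.1 CPM in control libraries (edgeR adjusted p = 0.0127 in nonpermissive cells, and 0.0666 to 0.077 without control 2 or nonpermissive 3).

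Cybrd1, a ferric reductase, was low in permissive cells, while nonpermissive libraries lay just below control libraries. It had 2.27, 1.67 and 4.04 CPM in permissive, 174, 200 and 136 CPM in nonpermissive and 300 and 203 CPM in control libraries. It fell by 6.58 on the log2 scale in permissive cells (SE 0.53, edgeR adjusted p = 3.17e-05), and in nonpermissive cells the change was -0.57 (edgeR adjusted p = 0.877). Agr3, a protein disulfide isomerase of secretory cells, had 1.03, 10.0 and 2.43 CPM in permissive, 18.4, 102 and 49.6 CPM in nonpermissive and 138 and 239 CPM in control libraries. Its groups did not overlap, and it fell by 5.41 in permissive cells (SE 0.87, edgeR adjusted p = 0.00112). Slc6a14, an amino acid transporter with a region 574 bp from its start, had 1.44, 0.669 and 0.404 CPM in permissive, 3.35, 14.8 and 0.640 CPM in nonpermissive and 92.0 and 17.7 CPM in control libraries. Its fall of 4.53 in the mean of both DAPT groups (SE 0.82, edgeR adjusted p = 0.00636) had an adjusted p of 0.219 without control 1. At 24 h Slc6a14 had 22.9, 21.8 and 38.9 CPM with DAPT, against 172, 193 and 191 CPM with DMSO (edgeR adjusted p = 3.34e-05).

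Genes near control-only regions also rose. Tmem255b, a transmembrane protein, had 481, 739 and 550 CPM in permissive, 5.86, 10.8 and 21.4 CPM in nonpermissive and 0 and 0.856 CPM in control libraries. With 3 counts in control libraries, the ratio of permissive to control cells was 1700 (95% counting interval 580 to 8230). The region 8.8 kb from its start was among the weaker ones, with ATAC fold 2.69 and 2.25 in control libraries. It was acetylated in the permissive libraries only, with H3K27ac fold 35.7 and 4.78. In nonpermissive cells Tmem255b was the 1 gene called higher (log2 fold change 5.02, edgeR adjusted p = 0.0494), and its adjusted p was 0.0518 to 0.222 in 6 of the alternatives, among them without either control library. At 24 h it had 234, 302 and 160 CPM with DAPT and 48.5, 46.9 and 45.9 CPM with DMSO (edgeR adjusted p = 8.71e-05).

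Casz1, a zinc finger transcription factor, had 212, 129 and 81.3 CPM in permissive, 8.10, 2.28 and 12.2 CPM in nonpermissive and 0.561 and 0.856 CPM in control libraries. Its 2 regions lay 74.4 and 79.6 kb away, inside Pex14, and it rose by 7.60 on the log2 scale in permissive cells (SE 0.91, edgeR adjusted p = 0.000176). Crmp1, a collapsin response mediator protein, had 208, 227 and 176 CPM in permissive, 5.86, 5.14 and 18.9 CPM in nonpermissive and 1.5 and 1.43 CPM in control libraries, and rose by 7.08 (SE 0.77, edgeR adjusted p = 0.000106). The rule that chose both genes required every DAPT library to lie above both control libraries, so that separation is no finding. The other rises chosen by the same rule were smaller. They were Cdk1, the mitotic kinase, Cdc7, a kinase that starts replication, Pcp4l1, Ubtd2 and Tjap1, with log2 fold changes of 2.34 (Tjap1) to 3.50 (Cdk1) in the mean of both DAPT groups. Without either control library none of these 5 passed in that comparison. Without control 1 or 2, adjusted p was 0.0629 to 0.180 for Cdc7, 0.051 to 0.106 for Pcp4l1 and 0.0647 to 0.103 for Tjap1. Over all settings that lost the call, among them without nonpermissive 2, it was 0.0514 to 0.197 for Cdk1 and 0.0504 to 0.299 for Ubtd2.

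**Figure D5:**
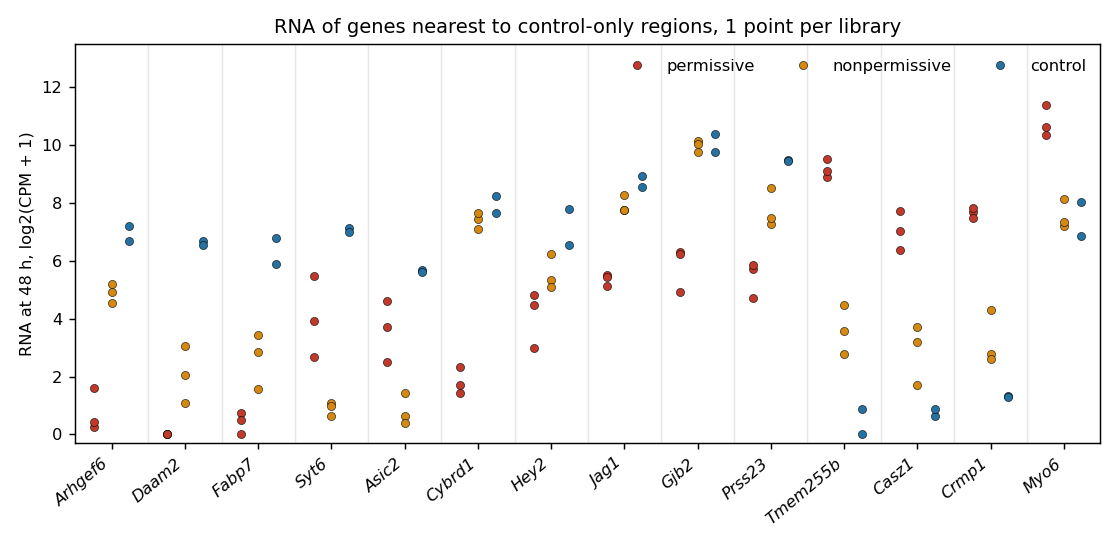
RNA at 48 h of genes nearest to control-only regions, as log2(CPM + 1), 1 point per library. The first genes, from Arhgef6 to Prss23, have permissive libraries below both control libraries, and the last 4, from Tmem255b to Myo6, have them above.

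Notch pathway genes were represented by 4 of the 16 on the list, namely Hey2, Jag1, Rbpj and Id3. Nearest genes made up 1308 of the 17274 protein-coding genes with a start at hand, and no list was tested against that share. Over the whole list 10 genes were lower and 0 higher in permissive against control cells, and 13 were lower and 0 higher at 24 h. Hey2, a repressor induced by Notch, carried 2 control-only regions, 1.0 kb upstream and 5.6 kb downstream of its start. The upstream one, chr10:30843629-30844027, was acetylated in both nonpermissive (fold 3.25 and 5.22) and both control libraries (5.71 and 4.11) and in no permissive library. Hey2 RNA was 21.5, 27.1 and 6.87 CPM in permissive, 73.7, 39.4 and 33.0 CPM in nonpermissive and 221 and 91.6 CPM in control libraries, and all DAPT libraries lay below both control libraries. It fell by 3.07 on the log2 scale in permissive cells (SE 0.62, edgeR adjusted p = 0.00481, and 0.0655 without control 1). Its RNA at 24 h was at 45.8, 40.4 and 58.3 CPM with DAPT and 126, 114 and 136 CPM with DMSO (edgeR adjusted p = 0.000167). Jag1, a Notch ligand of supporting cells, had 45.2, 42.5 and 34.4 CPM in permissive, 218, 307 and 214 CPM in nonpermissive and 488 and 371 CPM in control libraries. It fell by 3.40 in permissive cells (SE 0.41, edgeR adjusted p = 0.000211), and its 3 groups did not overlap. Id3, an inhibitor of helix-loop-helix factors, fell at 24 h by 1.37 (SE 0.10, edgeR adjusted p = 2.69e-05), and its region was acetylated in all 6 libraries. Rbpj, the DNA-binding partner of Notch, did not pass in any comparison.

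All 4 nearest genes on the list of pillar and Deiters cell genes, Prss23, Hey2, Gjb2 and Rorb, were lower in permissive cells. Of the 19 list members tested, 10 were lower there and 1 was higher. Prss23, a secreted protease, had 25.2, 52.2 and 57.4 CPM in permissive, 155, 369 and 180 CPM in nonpermissive and 713 and 693 CPM in control libraries. It fell by 3.97 on the log2 scale in permissive cells (SE 0.52, edgeR adjusted p = 0.000302), and at 24 h by 2.86 (SE 0.17, edgeR adjusted p = 8.89e-06). Gjb2, the gap junction protein connexin 26, had 29.3, 77.7 and 74.8 CPM in permissive, 1120, 1050 and 876 CPM in nonpermissive and 1330 and 876 CPM in control libraries. Nonpermissive and control libraries overlapped. Gjb2 fell by 4.19 in permissive cells (SE 0.50, edgeR adjusted p = 0.000176), and its region 1.1 kb inside the gene was acetylated in 5 libraries, all but permissive 1. Rorb, a nuclear receptor, fell by 2.12 in permissive cells (edgeR adjusted p = 0.0284), and its adjusted p was 0.0512 to 0.196 with a replicate block, without control 1 and without permissive 2 or 3. Fabp7 and Gjb2 were the 2 nearest genes among inner phalangeal and border cell genes, of which 7 of 12 were lower and 0 higher in permissive cells.

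Pan-supporting cell genes were represented by Prox1, Jag1, Pax2 and Epcam, and 14 of the 20 on the list were lower and 1 higher in permissive cells. Epcam, an epithelial adhesion molecule, fell by 1.58 on the log2 scale in permissive cells (SE 0.41, edgeR adjusted p = 0.0206). Its adjusted p was 0.0709 to 0.156 without control 1 or permissive 3. Prox1, a homeodomain factor of supporting cells and neurons, fell by 0.53 at 24 h (SE 0.11, edgeR adjusted p = 0.00752). Pax2, an otic transcription factor, was the 1 higher, at 12.4, 4.35 and 6.47 CPM in permissive, 0.558, 0.571 and 0.640 CPM in nonpermissive and 0.187 and 0.571 CPM in control libraries (edgeR adjusted p = 0.0328, 0.057 with a replicate block, and up to 0.221 without either control library or permissive 1).

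No hair cell transcription factor of the 16 listed was a nearest gene. With 1308 nearest genes among 17274 with a start, a list of 16 can hold none. Of the 15 factors tested, 9 were higher and 1 was lower in permissive cells. Of 28 genes of the hair bundle, synapse and cytoskeleton, 3 were nearest genes and all 3 were higher in permissive cells, as were 23 of the 26 list members tested. Myo6, an unconventional myosin of hair cells, had 2660, 1580 and 1300 CPM in permissive, 279, 147 and 162 CPM in nonpermissive and 259 and 115 CPM in control libraries. Its rise was 3.30 on the log2 scale (SE 0.58, edgeR adjusted p = 0.00198), and the permissive libraries stood apart from the others. Cacna1d, a calcium channel subunit, rose by 3.07 (edgeR adjusted p = 0.00839, and 0.0588 to 0.0741 without a control library). Tmc1, a subunit of the mechanotransduction channel, rose by 4.63 (edgeR adjusted p = 0.0498). The Tmc1 call was lost without either control library and without nonpermissive 1 or 2, at adjusted p of 0.0545 to 0.241. The region near Myo6 had ATAC fold 2.50 and 2.32 in control libraries and an H3K27ac peak in permissive 1 and nonpermissive 1 and in no control library.

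Other transcription factors and signalling genes had single regions. Both nearest genes of the AP-1 and immediate early list were lower in permissive cells, as were 7 of 20 list members tested. Klf4, a zinc finger factor, lay 14.9 kb from a strong region (ATAC fold 11.2 and 3.81) and had 8.05, 4.02 and 3.64 CPM in permissive, 30.4, 78.8 and 20.5 CPM in nonpermissive and 76.9 and 62.5 CPM in control libraries. It fell by 3.70 in permissive cells (SE 0.64, edgeR adjusted p = 0.00196), and nonpermissive libraries overlapped control libraries. Fosb, a subunit of AP-1, fell by 3.08 (SE 0.75, edgeR adjusted p = 0.0148, and 0.114 without control 1). Sox6 of the SOX family fell by 2.46 (edgeR adjusted p = 0.0108, and 0.0903 without control 1). Wwtr1, the Hippo coactivator TAZ, fell by 2.17 (edgeR adjusted p = 0.0121, and 0.0912 without control 2). Tcf7l2, a Wnt effector with 2 regions, fell by 2.49 (edgeR adjusted p = 0.0134, and 0.158 without control 1). Of the 6 nearest genes on the list of TGF-beta, BMP and Wnt genes, Tcf7l2 and Daam2 were thus lower in permissive cells, and Bmpr1b, Smad3, Smad6 and Fzd7 did not pass there. Of each whole list, 6 of 19 of these signalling genes, 7 of 13 of the NFI and SOX genes and 4 of 14 of the Hippo genes were lower in permissive cells, and 0 were higher.

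Of matrix genes, Col4a1, Col4a2, Lamb1 and Tnc were nearest genes, and 12 of 19 on the list were lower and 1 higher in permissive cells. The 1 higher was Tnc, tenascin C, with 2 regions. It had 4120, 2030 and 1900 CPM in permissive, 248, 69.7 and 259 CPM in nonpermissive and 553 and 442 CPM in control libraries. Nonpermissive libraries were lowest and permissive highest. Tnc rose by 2.43 on the log2 scale (SE 0.61, edgeR adjusted p = 0.0175, and 0.0849 and 0.141 without a control library), and by 1.41 at 24 h (edgeR adjusted p = 0.000128). Col4a1 and Col4a2, the basement membrane collagens that share a promoter region, fell at 24 h by 1.69 and 1.46 (edgeR adjusted p = 1.08e-05 and 1.82e-05) and did not pass at 48 h. Crabp1 was the 1 nearest gene on the list of epithelial ridge genes, of which 4 of 17 were lower and 3 higher in permissive cells, and did not pass.

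Markers of other cell types were examined in the same way. None of the 13 mesenchyme, 9 Schwann and satellite glia, 10 endothelial, 10 blood and macrophage or 8 melanocyte and stria genes listed was a nearest gene. Of 10 spiral ganglion neuron genes Elavl4 and Prox1 were. Lists this short can hold none where 1308 of 17274 genes are nearest genes, and this was not tested. Elavl4 rose at 24 h by 2.84 on the log2 scale (SE 0.25, edgeR adjusted p = 7.13e-05), at 8.26, 7.71 and 8.99 CPM with DAPT against 1.32, 0.911 and 1.25 CPM with DMSO. In the RNA libraries at 48 h, 12 of the 13 mesenchyme genes passed the filter and summed to 230 to 706 CPM in permissive, 1420 to 3430 CPM in nonpermissive and 658 to 2830 CPM in control libraries, and none of the 12 was at 0 in any group. The 7 Schwann and satellite glia genes that passed summed to 272 to 408 CPM in permissive, 574 to 1100 CPM in nonpermissive and 612 to 1220 CPM in control libraries. The 5 melanocyte and stria genes summed to 37.6 to 90.6 CPM in permissive, 213 to 374 CPM in nonpermissive and 260 to 507 CPM in control libraries, and 1 of them was at 0 in permissive libraries. The next 2 lists stood higher in permissive than in control libraries. Endothelial genes, 9 of which passed, summed to 57.4 to 160 CPM in permissive, 122 to 295 CPM in nonpermissive and 23.2 to 54.5 CPM in control libraries, and 5 blood and macrophage genes to 60.9 to 254 CPM in permissive, 20.0 to 104 CPM in nonpermissive and 28.6 to 53.9 CPM in control libraries. The 7 spiral ganglion neuron genes overlapped between permissive (253 to 451 CPM) and control libraries (299 to 424 CPM), with 149 to 276 CPM in nonpermissive libraries. The part of such cells in the control-only regions was not tested.

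Genes with several control-only regions were few. Among the 1294 nearest genes in the count tables, 1155 had 1 region, 123 had 2, 14 had 3 and 2 had 4. The genes with 4 were Tcf7l1, a repressor of the Wnt pathway, and Bend5. Tcf7l1 had 15.9, 9.04 and 6.47 CPM in permissive, 178, 7.99 and 21.4 CPM in nonpermissive and 333 and 63.9 CPM in control libraries, with nonpermissive libraries spread across both others. It fell by 4.22 on the log2 scale in permissive cells (SE 1.03, edgeR adjusted p = 0.0149, and 0.0534 to 0.17 without control 1 or permissive 2). At 24 h it fell by 1.82 (SE 0.14, edgeR adjusted p = 3.69e-05). Bend5 fell at 24 h by 0.81 (edgeR adjusted p = 0.00366). Of the genes with 3 regions, Frmd4a, a scaffold protein of epithelial polarity, had 27.4, 36.1 and 23.9 CPM in permissive, 82.7, 76.5 and 73.6 CPM in nonpermissive and 248 and 154 CPM in control libraries. Its groups did not overlap, and it fell by 2.78 in permissive cells (SE 0.43, edgeR adjusted p = 0.000854) and by 1.91 at 24 h (SE 0.10, edgeR adjusted p = 5.42e-06). The atypical cadherin Fat4, the tetraspanin Cd9, the proteoglycan Spock1 and Lingo2 also fell in permissive cells, with log2 fold changes of -4.23, -2.69, -2.96 and -4.37. Their edgeR adjusted p was 0.0102, 0.0166, 0.00337 and 0.016. Without control 2 the call was lost for Cd9 (0.0598 to 0.0622, also without permissive 2) and Lingo2 (0.128). Rnf144b was higher in permissive cells, at 9.70, 16.7 and 8.09 CPM against 0 and 0.571 CPM in control libraries, with 2 counts in control libraries and a ratio of 50.3 (95% counting interval 13.6 to 420). Its edgeR adjusted p of 0.0421 was 0.0503 to 0.209 without either control library or without permissive 1 or 2. Filip1 fell at 24 h by 1.45 (edgeR adjusted p = 0.000446). Of the other genes with 3 regions, Dmrtb1 and Tyrp1 did not pass the filter, and Pakap, Smyd2, Tmsb4x, Tspan9 and Zmiz1 passed in no 48 h comparison. At 24 h Zmiz1 rose with DAPT (log2 fold change 0.66, edgeR adjusted p = 0.000316) and Tspan9 fell (log2 fold change -0.64, edgeR adjusted p = 0.0052). Pakap, Smyd2 and Tmsb4x did not pass at 24 h.

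The 2 other promoters printed above differed in RNA as follows. Flrt2, an adhesion protein of the fibronectin leucine-rich family, had 78.8, 20.8 and 33.2 CPM in permissive, 53.9, 37.1 and 36.5 CPM in nonpermissive and 188 and 209 CPM in control libraries. All DAPT libraries lay below both control libraries, and Flrt2 fell by 2.19 on the log2 scale in the mean of both DAPT groups (SE 0.44, edgeR adjusted p = 0.0108, and 0.0509 and 0.0647 without a control library). At 24 h it had 73.0, 69.2 and 75 CPM with DAPT and 143, 163 and 137 CPM with DMSO (log2 fold change -1.03, SE 0.09, edgeR adjusted p = 7.69e-05). Depp1, named as a decidual protein induced by progesterone, did not pass the filter at 48 h. At 24 h it had 1.18, 0.831 and 1.41 CPM with DAPT, against 17.6, 12.3 and 39.2 CPM with DMSO, and fell by 4.34 (SE 0.50, edgeR adjusted p = 0.000336). The DAPT and DMSO libraries did not overlap.

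The 34 regions acetylated in both control and both nonpermissive libraries and in no permissive library had 17 nearest genes in the test. Of these, 8 (47.1%) were lower and 0 higher in permissive cells, against 7.28% and 5.72% of all genes. At 24 h 12 (70.6%) were lower and 1, Mlxip, was higher, against 14.2% and 11.5% of all genes. The same acetylation pattern held at 2009 of all merged regions. The share of their nearest genes was not computed, so these values are not shown to be particular to control-only regions. The 8 were Arhgef6, Hey2, Fstl1, Agrn, Iqgap1, Me3, Tes and Ier5, and the other 9, among them Pdgfc, Kank1, Phf2 and Snx18, did not pass in permissive cells. Values are given for 5 of the 8, chosen after their falls were seen. Fstl1, a secreted antagonist of BMP signals, had 2 such regions. Its RNA was 219, 582 and 369 CPM in permissive, 2500, 3180 and 2830 CPM in nonpermissive and 4440 and 3920 CPM in control libraries, with no overlap between groups, and it fell by 3.42 on the log2 scale in permissive cells (SE 0.47, edgeR adjusted p = 0.000372). Agrn, the basement membrane proteoglycan agrin, had 133, 165 and 280 CPM in permissive, 372, 353 and 484 CPM in nonpermissive and 587 and 1260 CPM in control libraries. It fell by 2.26 in permissive cells (SE 0.47, edgeR adjusted p = 0.00594, and 0.0745 without control 2). The scaffold protein Iqgap1 fell by 1.82 in permissive cells (SE 0.41, edgeR adjusted p = 0.0102). Me3, a mitochondrial malic enzyme, fell by 3.34 (edgeR adjusted p = 0.0136, and 0.0976 without control 2). Tes, an adhesion protein, fell by 1.82 (edgeR adjusted p = 0.0352), and lost its call without control 1, nonpermissive 1 or any permissive library (0.052 to 0.36). At 24 h these 5 fell by 0.51 (Tes) to 1.65 (Me3), with edgeR adjusted p of 5.84e-05 (Me3) to 0.00322 (Tes). Pdgfc passed at 24 h only, where it fell by 0.97 (SE 0.19, edgeR adjusted p = 0.00605).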

How the data were processed

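ATAC and H3K27ac peak lists, 1 per library, hold the fold enrichment (a ratio of signal to local background), −log10 p-value and −log10 q-value of each peak as deposited by the authors; the submitters' processing notes name Bowtie2, MACS2 and UMI-tools on mm10, without versions, roles or settings. RNA tables hold expected counts from RSEM, as deposited by the authors; STAR and DESeq2 are also named in the notes. The lists hold no read depth. RNA depth was 2165338 to 4896374 expected counts per library at 48 h and 10666050 to 13158897 at 24 h. Intervals and floors cover counting error only.

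Regions were merged and compared in Python 3.11.15 with pandas 2.3.3, NumPy 2.4.6 and SciPy 1.17.1. Expected counts were rounded, filtered with filterByExpr and scaled by TMM, and edgeR 4.0.16 in R 4.3.3 gave quasi-likelihood tests, with 8 libraries in 1 fit at 48 h and 6 at 24 h. Adjusted p is Benjamini-Hochberg over all genes tested, and a gene rose, fell or was called higher or lower where it was under 0.05. CPM is edgeR's cpm value, a count scaled by library size and TMM factor. DESeq2 1.42.0 was an alternative. Of 48709 gene IDs 48349 (99.3%) matched a symbol. Starts, genes and promoter sequences are RefSeq's on GRCm38.p6. Starts were at hand for 17274 of 21631 protein-coding genes (79.9%), and a region whose nearest gene could be one without a start was left unassigned; this limit, protein-coding genes and the 100-base minimum for promoter windows were set after the reference was seen. Of 1308 nearest genes 1294 matched the count tables. Motifs around peak summits were planned and needed a genome; promoter windows took their place.

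Named regions were the 10 highest by the lower control fold, up to 10 acetylated in both control and no DAPT library, the lowest and the median. Named genes were those nearest to them, the 8 largest falls and rises in the mean of both DAPT groups among genes with mean log2 CPM of at least 4 and no overlap, and up to 3 per gene list. Genes with 3 or more regions, those called in nonpermissive cells and those of the printed promoters were added after their values were seen. The members and lists were chosen with earlier results of these data known.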

Additional observations from a re-analysis of the deposited data

How the results depend on the processing

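Members, acetylation, nearest genes, position and motifs were set against alternatives. Of these values 135 stayed within 1.5 times, 1 SD or the 95% Wilson interval of the reported value, and 48 moved further. The acetylation difference kept its sign. Some of the 135 were fixed in advance. A group mean of 2 H3K27ac libraries cannot move by 1 SD when 1 is left out. The acetylation difference cannot change under a replicate block. The number of regions was 822 with −log10 q of at least 5 in every library, 94 with that limit in control lists alone and 1723 with control peaks at q of at most 0.05, a setting chosen after seeing the data. Without 1 ATAC library it was 2788 to 37452. The H3K27ac ratio in permissive cells was 0.764 with peaks within 500 bp, 0.529 with the same number of peaks in every library and 0.241 with H3K27ac peaks at −log10 q of at least 5. That last setting gave 0.888 in nonpermissive and 0.789 in control cells. With control ATAC peaks at −log10 q of at least 5 the ratio was 2.07 in nonpermissive and 3.59 in control cells. The difference permissive minus control, -0.912, was -1.15 where an H3K27ac peak had to cover 50% of a region, -0.547 with stricter H3K27ac peaks and -2.95 with stricter ATAC peaks. Without 1 H3K27ac library the ratios were 0.56 to 0.688 in permissive, 1.2 to 1.57 in nonpermissive and 1.31 to 1.76 in control cells, and the difference -1.14 to -0.685. The share of regions within 1 kb of a start was 1.06% with stricter control peaks, and the GC box was in 0.0% of promoter windows covered over at least 150 bases.

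For nearest genes lower in nonpermissive cells the share was 1.40% with DESeq2 (14 genes, against 0.588% of all genes), 1.96% without a filter (23 genes, against 0.802%), 0.0% within 20 kb and 0.163% with genes of every biotype. For those higher it was 0.501% with DESeq2 (0.596% of all genes), 0.683% without a filter (0.598%), 0.2% within 20 kb and 0.163% with every biotype. It was 0.0% with DESeq2's size factors, with members at q of at most 0.05 in both control libraries and with members that had no DAPT peak within 1 kb. In the mean of both DAPT groups the share lower was 9.22% without a filter (3.93% of all genes), and the share higher was 3.16% with DESeq2 (3.57% of all genes) and 0.671% (1.62%) for members with no DAPT peak within 1 kb. The cause of these changes was not tested. Biotype, q and 1 kb settings were chosen after seeing the data. Without 1 RNA library the share lower was 8.49 to 13.8% in permissive cells, 0.0 to 0.579% in nonpermissive cells, 3.38 to 7.46% in the mean of both DAPT groups and 21.8 to 30.4% at 24 h. The share higher was 2.6 to 6.04%, 0.0 to 0.101%, 0.386 to 1.51% and 8.9 to 15.6% in these comparisons.

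The labels do not say what a shared replicate number means. Deviations from group means correlated between same-numbered libraries at r of 0.512 and 0.198 for permissive and control 0.336 and 0.0113 for nonpermissive and control, and 0.576, 0.152 and 0.127 for permissive and nonpermissive. At 24 h r was 0.00793, -0.0469 and -0.0745. Unlike numbers reached similar values. For these r was 0.187 for nonpermissive 3 and permissive 2, 0.377 for control 2 and permissive 3 and 0.333 for control 2 and nonpermissive 3. Number 1 gave the highest r between each pair of 48 h groups, while numbers 2 and 3 were each exceeded by an unlike-numbered pair. Control libraries, which every comparison at 48 h uses, have 2 numbers, of which 1 was near 0 with nonpermissive. Deviations of 2 libraries from their mean mirror each other, so each r of control 2 is the negative of that of control 1. These values are thus not separate evidence on pairing. With a replicate block for the pairing of same-numbered libraries, 15.4% of nearest genes were lower and 7.57% higher in permissive cells (8.68% and 6.68% of all genes in the same fit), 0.498% and 0.0996% in nonpermissive cells (0.179% and 0.0896%), 6.37% and 1.79% in the mean of both DAPT groups (3.23% and 2.02%) and 26.0% and 10.5% at 24 h (12.6% and 9.31%). The shares higher thus stayed near those of all genes. The acetylation difference of -0.912 could not change under a block, since the mean of paired differences equals the difference of means. It therefore says nothing about pairing. Of the named genes, Rorb and Pax2 in permissive cells, Sec24d and Lingo2 in the mean of both DAPT groups and Pim1 and Ubtd2 at 24 h lost their call under the block. Of the calls of genes named here, 17 of 39 in permissive cells, 0 of 5 in nonpermissive cells, 12 of 27 in the mean of both DAPT groups and 48 of 52 at 24 h held in every setting run. Motifs in the whole merged region were not run, since they need a genome. Read depth behind the peak lists is unknown, so a closed region and one below the detection limit of a DAPT list cannot be told apart.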
